A study of Mus musculus with 4 samples.

Results

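The genes described here encode the enzymes that place, remove and bind methyl and acetyl groups on histones and DNA, measured as mRNA in SW620 colon carcinoma cells with and without F5446. They were chosen by gene symbol: the named probe sets of the array whose symbol belongs to the SUV39H, EHMT, SETDB, SETD, KMT, EZH, NSD, DNMT, KAT, KDM, HDAC, SIRT, TET, CBX, UHRF or PRDM series, or is ATF7IP, TRIM28 or MPHOSPH8. This gave 91 genes, represented by 98 probe sets, of the 14884 genes that could be named on the array. Where a gene had more than 1 probe set, the one with the highest mean over all arrays represented it. The 91 genes comprise 32 writers, 38 erasers, 10 readers with their cofactors, and 11 members of the PRDM family, which were kept apart because only some of them are known to methylate histones. Among others, SETDB1, SETDB2, KMT2A, KMT2E, SETD1B, SETD4, DOT1L, KAT6A, TET3, KDM4F, KDM8, CBX8, UHRF2, PRDM1, PRDM2 and PRDM11 had no probe set matched by the rule and were not analysed here.

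SW620 is an established human colon carcinoma line, so all values describe a single line. The study compared untreated cells with cells given F5446, a small molecule described in the labels as selective for SUV39H1, at 50 nM for 2 days, with 2 arrays in each of the 2 groups. The labels name no vehicle for the untreated cells. The series describes 2 biological replicates per condition but no separate cultures, and the p-values therefore reflect how far these 4 arrays vary, which may be technical. The sample records name the mouse as organism, while the culture notes and the array annotation are human, and the data were read as human.

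Writers such as SUV39H1 attach methyl or acetyl groups to particular lysines of histone tails, or methyl groups to cytosine in DNA; erasers take them off; readers bind the marked residue and bring further proteins. Trimethylated lysine 9 of histone H3 (H3K9), the product of SUV39H1 and SUV39H2, is bound by the HP1 proteins, and together they form compact, largely silent heterochromatin. Trimethyl H3K27, placed by the Polycomb enzymes EZH1 and EZH2, marks silenced developmental genes, while methyl H3K4, methyl H3K36 and acetylated lysines are found at active promoters, enhancers and gene bodies. Several of these proteins work at the replication fork, where DNMT1 and UHRF1 copy DNA methylation onto the new strand.

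The values are log2 signals per probe set as the authors deposited them. Over all named genes, arrays of the same group differed with an SD of 0.252 (control) and 0.226 (F5446) on the log2 scale, against 0.743 to 0.751 for a control and an F5446 array. Over the 91 genes the same SDs were 0.202, 0.141 and 0.894 to 0.935. The median difference between the replicate arrays of a group was 0.10 for these genes in either group. Signals of different probe sets are not comparable as levels, so each gene is compared only with itself. The precision is limited by the number of arrays.

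Of the 91 genes, 29 were higher and 28 lower after F5446, and 34 did not pass the test (limma, adjusted p under 0.05 over all 14884 genes). The share that passed was 62.6%, against 40.9% of all named genes (18.2% higher and 22.7% lower). Most of the chromatin genes were well detected, and of the 10263 named genes whose mean signal was at least 4.42, the median of all values on the arrays, 55.7% passed. For the 80 chromatin genes above the same level the share was 71.2%, given as a description. At 75 of the 91 genes both F5446 arrays lay beyond both control arrays, and over all named genes the share was 66.2%. Among the 10263 named genes with a mean signal of at least 4.42, they lay above at 3546 and below at 4417. At least 2-fold changes were seen in 9 genes that rose and 10 that fell, where 5.4% of all named genes rose and 7.32% fell by as much. The median log2 fold change of the 91 genes was -0.01, against -0.05 over all named genes. With each array centred on its median, 36 of the 91 genes were higher and 26 lower, and the share of higher genes among all calls went from 44.6% to 55.6% over all named genes. Bulk RNA cannot tell fewer cells of a kind from less RNA per cell.

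Calls went in both directions among writers and erasers and in 1 direction among readers. Of the 32 writers, 14 rose and 10 fell, with a median log2 fold change of 0.10. Of the 38 erasers, 14 rose and 9 fell, with a median of 0.08. Of the 10 readers and cofactors, 8 fell and 0 rose, with a median of -0.72; 1 further reader, MPHOSPH8, passed as higher when each array was centred on its median. Of the 11 PRDM genes, 1 rose and 1 fell. The called shares were 75% of writers, 60.5% of erasers, 80% of readers and cofactors and 18.2% of PRDM genes. Beside these, 40.9% of all named genes passed, and 55.7% of those with a mean signal of at least 4.42. The difference between roles was not tested, since the genes of a role are not replicates.

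**Figure D1:**
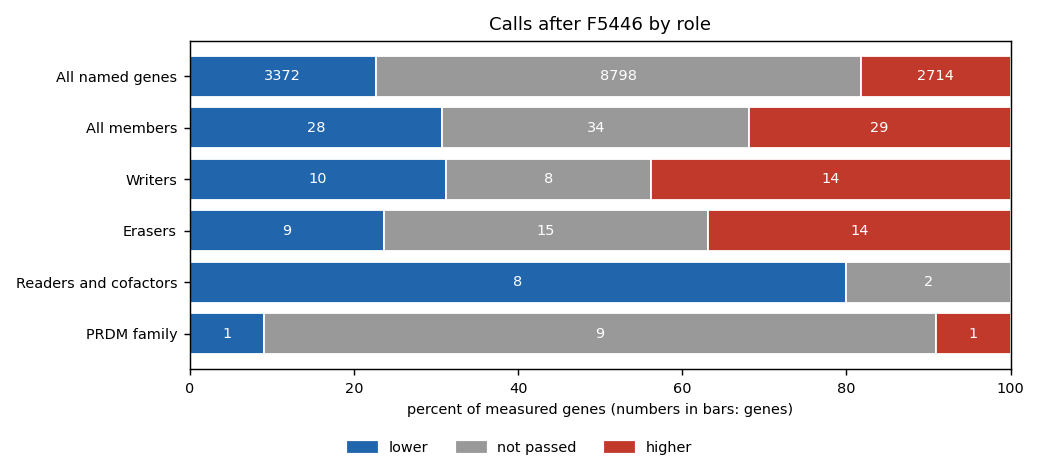
Share of measured genes that were lower, not past the test or higher after F5446 (limma, adjusted p under 0.05), in percent on the x axis, for all named genes, all 91 chromatin genes and each role; the numbers in the bars are genes. Readers and cofactors hold 8 lower and 0 higher genes, while writers and erasers hold 14 higher genes each.

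Of the 4 measured H3K9 methyltransferases, 3 fell and EHMT1 did not pass; 22.7% of all named genes fell. SUV39H1, the labelled target of F5446, had a log2 signal of 9.12 and 9.17 in the control arrays and 7.47 and 7.36 in the F5446 arrays. It was lower on both treated arrays, 3.32-fold (log2 fold change -1.73 ± 0.08, SE, adjusted p = 3.44e-07). A dimmer probe set for the same gene read 4.97 and 4.92 without F5446 and 3.48 and 4.03 with it, a 2.28-fold fall. SUV39H2, the second enzyme that trimethylates H3K9, read 7.79 and 7.83 without F5446 and 6.76 and 6.69 with it, a fall of 2.12-fold (log2 fold change -1.08 ± 0.09, SE, adjusted p = 1.34e-05). EHMT2, also called G9a, places mono- and dimethyl H3K9 in active regions of the nucleus, and read 8.85 and 8.67 without F5446 and 7.61 and 7.64 with it. Its fall of 2.19-fold (log2 fold change -1.13 ± 0.09, SE, adjusted p = 7.48e-06) was larger than the spread between replicates. EHMT1, which encodes GLP, the partner of G9a in a shared enzyme complex, read 7.55 and 7.54 without F5446 and 7.53 and 7.65 with it. The groups overlapped for EHMT1, and its log2 fold change of 0.05 ± 0.09 (SE) did not pass.

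The enzymes for H3K27 went opposite ways. EZH1 is the Polycomb methyltransferase known for its presence in resting cells, and read 7.40 and 7.28 without F5446 and 9.17 and 9.23 with it. It rose 3.63-fold (log2 fold change 1.86 ± 0.08, SE, adjusted p = 2.60e-07), the largest rise among the writers. EZH2, the more active enzyme, found mainly in dividing cells, read 10.03 and 9.97 without F5446 and 9.08 and 9.001 with it, and fell 1.95-fold (log2 fold change -0.96 ± 0.06, SE, adjusted p = 2.80e-06). Neither gene had overlapping groups. The demethylases of the same residue rose. KDM6B, also called JMJD3, removes di- and trimethyl H3K27 and read 7.82 and 7.67 without F5446 and 10.36 and 10.17 with it, a rise of 5.75-fold (log2 fold change 2.52 ± 0.09, SE, adjusted p = 7.56e-08). KDM6A, also called UTX, has the same substrate and read 7.92 and 7.84 without F5446 and 9.05 and 9.24 with it, a rise of 2.41-fold. KDM7A, which removes dimethyl groups from H3K9 and H3K27, read 7.05 and 6.78 without F5446 and 9.86 and 9.91 with it. Its rise of 7.83-fold (log2 fold change 2.97 ± 0.10, SE, adjusted p = 6.09e-08) was the largest of the 91 genes.

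Of the 5 measured writers of H3K4 methylation, 4 rose and 0 fell. A rise was called for 18.2% of all named genes and 25.1% of those with a mean signal of at least 4.42. KMT2B, which acts at promoters of active genes, read 7.45 and 7.06 without F5446 and 8.69 and 8.52 with it and rose 2.55-fold (log2 fold change 1.35 ± 0.13, SE, adjusted p = 3.03e-05). KMT2C and KMT2D, the enzymes of enhancer monomethylation, rose 1.86-fold and 1.82-fold. SETD1A, a main source of promoter trimethyl H3K4, rose by 0.33 ± 0.09 on the log2 scale (SE; adjusted p = 0.0187). That call was lost without control replicate 2 (adjusted p = 0.113), without F5446 replicate 1 (0.0724) or replicate 2 (0.155), and without an intensity trend (0.0682). SETD7, a monomethylase of H3K4 and of other proteins, changed by 0.16 ± 0.10 and did not pass.

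Among the demethylases of H3K4, 3 of the 4 measured KDM5 genes rose and KDM1A fell, where 18.2% of all named genes rose and 22.7% fell. KDM5B, also called JARID1B, removes trimethyl H3K4, and read 6.70 and 6.59 without F5446 and 8.59 and 8.62 with it. It rose 3.89-fold (log2 fold change 1.96 ± 0.09, SE, adjusted p = 3.10e-07). Its relatives KDM5C and KDM5A rose 1.85-fold and 1.53-fold, and KDM5D, whose signal lay below 4.42 on all arrays, did not pass. KDM1A, also called LSD1, removes mono- and dimethyl H3K4 with a flavin cofactor and fell 1.48-fold, from 10.53 and 10.54 to 9.93 and 10.02. KDM1B, its relative, changed by 0.09 ± 0.07 (SE, adjusted p = 0.353), and passed as higher when each array was centred on its median (0.0355).

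**Figure D2:**
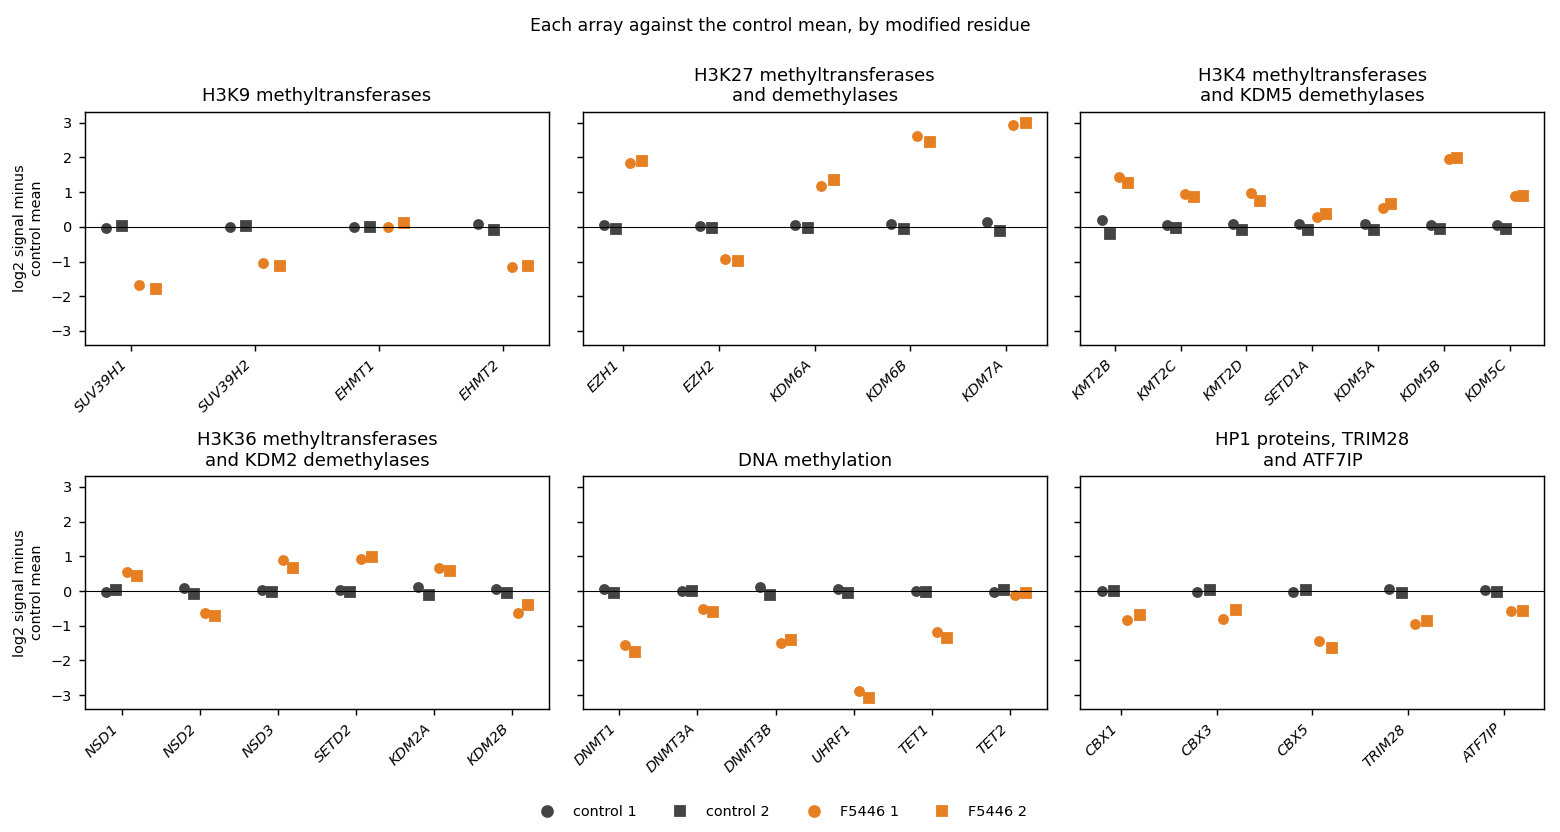
Log2 signal of each array minus the mean of the 2 control arrays (y axis) for writers, erasers and readers grouped by the residue they act on; black points are control arrays, orange points F5446 arrays, circles replicate 1 and squares replicate 2. SUV39H1, SUV39H2, EHMT2, EZH2 and the DNA methyltransferases lie below their controls, and EZH1, KDM6A, KDM6B, KDM7A and the KMT2 genes above them.

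The writers of H3K36 methylation all passed, 3 upward and 1 downward, where 18.2% of all named genes rose and 22.7% fell. SETD2, the enzyme of trimethyl H3K36 in transcribed gene bodies, read 7.64 and 7.57 without F5446 and 8.53 and 8.59 with it and rose 1.94-fold (log2 fold change 0.96 ± 0.08, SE, adjusted p = 1.22e-05). NSD1 and NSD3, which make dimethyl H3K36, rose 1.40-fold and 1.72-fold. A second, dim probe set of NSD3 had a log2 fold change of 0.02 and did not pass (adjusted p = 0.956). NSD2, the remaining relative, read 8.28 and 8.12 without F5446 and 7.56 and 7.48 with it and fell 1.60-fold. Of the demethylases of dimethyl H3K36, KDM2A rose 1.54-fold while KDM2B, which also brings Polycomb proteins to unmethylated CpG islands, fell 1.43-fold. The KDM2B call was lost without control replicate 1 (adjusted p = 0.0971) or F5446 replicate 1 (0.129).

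Few of the remaining histone methyltransferases moved far. KMT5B, which turns mono- into dimethyl H4K20, rose 1.57-fold, from 9.56 and 9.53 to 10.17 and 10.22. KMT5A, the monomethylase of H4K20, changed by 0.19 ± 0.09 and did not pass, although with each array centred on its median its adjusted p was 0.0186. KMT5C, which trimethylates H4K20 in heterochromatin, changed by -0.19 ± 0.13 and did not pass. Among SET domain proteins known for other or unsettled substrates, SETD5 rose 1.77-fold. SETD3, a methyltransferase of actin, fell 1.27-fold, a call lost without F5446 replicate 1 (adjusted p = 0.0651) and without an intensity trend (0.0534). SETD9 fell 1.31-fold, a call lost when any single array was left out (adjusted p from 0.0659 to 0.148) and with each array centred (0.103). SETD6 changed by 0.03 ± 0.11 and did not pass.

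All 3 catalytic DNA methyltransferases fell. A fall was called for 22.7% of all named genes and 30.5% of those with a mean signal of at least 4.42. DNMT1, which maintains CpG methylation after replication, read 10.10 and 9.96 without F5446 and 8.46 and 8.27 with it and fell 3.16-fold (log2 fold change -1.66 ± 0.08, SE, adjusted p = 6.24e-07). DNMT3B, which methylates unmarked DNA, read 7.12 and 6.87 without F5446 and 5.51 and 5.59 with it and fell 2.73-fold (log2 fold change -1.45 ± 0.13, SE, adjusted p = 1.74e-05). DNMT3A, with the same activity, read 6.74 and 6.72 without F5446 and 6.22 and 6.11 with it and fell 1.48-fold. DNMT3L, a cofactor without enzyme activity that is known mainly from germ cells, read between 4.28 and 4.50 on all arrays and did not pass. UHRF1 binds hemimethylated CpG and trimethyl H3K9 and brings DNMT1 to the new strand. It read 9.72 and 9.63 without F5446 and 6.79 and 6.59 with it, a fall of 7.93-fold (log2 fold change -2.99 ± 0.09, SE, adjusted p = 4.43e-08) and the largest of the 91 genes. TET1, which oxidises methylcytosine and so starts its removal, read 7.62 and 7.59 without F5446 and 6.42 and 6.24 with it and fell 2.42-fold (log2 fold change -1.28 ± 0.10, SE, adjusted p = 1.10e-05). Its second, dim probe set fell 1.65-fold. TET2 has the same activity, read 5.65 and 5.70 without F5446 and 5.55 and 5.62 with it, and did not pass.

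**Figure D3:**
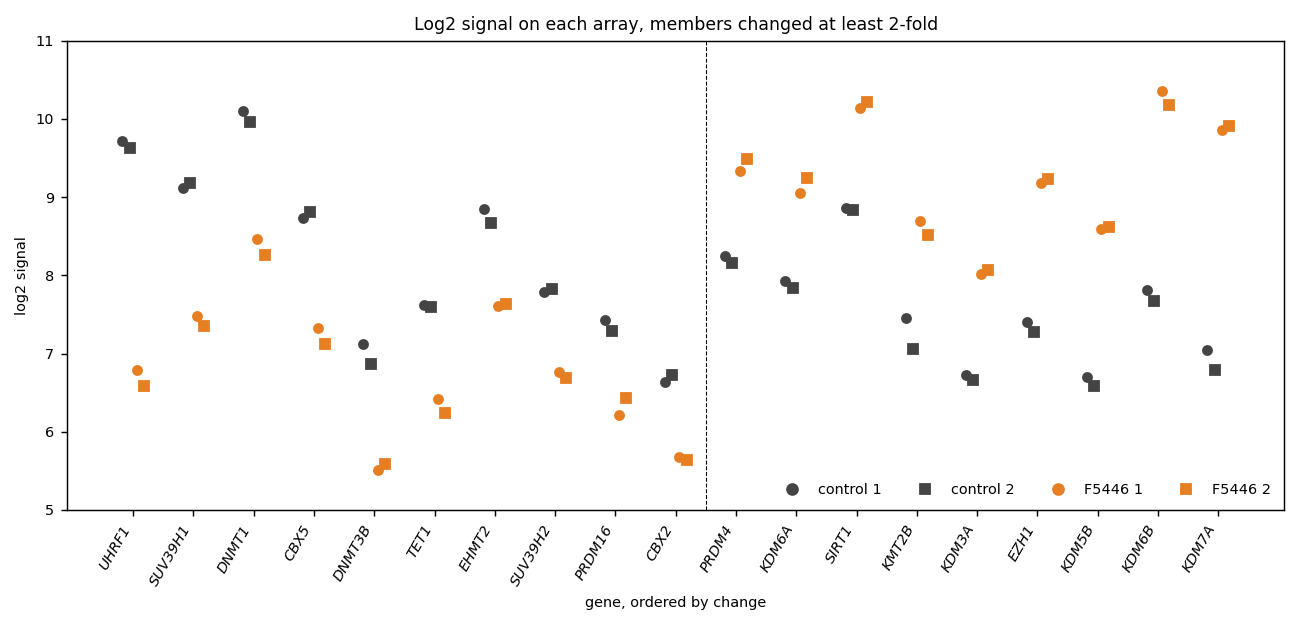
Log2 signal (y axis) on each of the 4 arrays for the 19 chromatin genes that passed the test with a change of at least 2-fold, ordered from the largest fall (UHRF1) to the largest rise (KDM7A); circles and squares are replicates 1 and 2, and the dashed line parts the 10 falls from the 9 rises. No control array overlaps an F5446 array for any of these genes.

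The lysine demethylases were the group of erasers with the most rises: 10 of 18 measured rose and 4 fell. The share that rose was 55.6%, against 18.2% of all named genes and 25.1% of those with a mean signal of at least 4.42. KDM3A, which removes mono- and dimethyl H3K9 and is known as a hypoxia-induced gene, read 6.72 and 6.66 without F5446 and 8.02 and 8.07 with it and rose 2.55-fold (log2 fold change 1.35 ± 0.09, SE, adjusted p = 2.96e-06). Its relative KDM3B rose by 0.27 ± 0.09 on the log2 scale (SE; adjusted p = 0.0369). The KDM3B call was lost when control replicate 2 (adjusted p = 0.219) or either F5446 array (0.269 without replicate 1, 0.0869 without replicate 2) was left out, after quantile normalization (0.091) and without an intensity trend (0.143).

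The KDM4 demethylases, which act on trimethyl H3K9 and, for most of them, trimethyl H3K36, were divided. KDM4B rose 1.50-fold, a call lost without control replicate 2 (adjusted p = 0.0591) or F5446 replicate 1 (0.0936). KDM4C read 7.74 and 7.69 without F5446 and 7.16 and 7.08 with it and fell 1.51-fold (log2 fold change -0.60 ± 0.09, SE, adjusted p = 5.27e-04). KDM4D fell 1.49-fold, a call lost when control replicate 2 (adjusted p = 0.161) or either F5446 array (0.161 without replicate 1, 0.0959 without replicate 2) was left out, and after centring of each array (0.0653). KDM4A, at 8.19 and 7.90 without F5446 and 8.03 and 8.02 with it, and KDM4E, whose signal lay below 4.42 on all arrays, did not pass.

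The zinc-dependent histone deacetylases, which remove acetyl groups from histones and other proteins, showed 4 falls and 2 rises among 11 genes. Their called share of 54.5% was close to the 55.7% of all named genes with a mean signal of at least 4.42, and 10 of the 11 lay above that level. Of the class I enzymes, HDAC1, HDAC2 and HDAC3 are the catalytic cores of nuclear corepressor complexes, and HDAC8 is known for deacetylating cohesin. HDAC8 read 8.32 and 8.30 without F5446 and 7.35 and 7.36 with it and fell 1.93-fold (log2 fold change -0.95 ± 0.08, SE, adjusted p = 1.32e-05). HDAC3, the enzyme of the NCoR complexes, read 8.28 and 8.24 without F5446 and 7.64 and 7.61 with it and fell 1.55-fold, and HDAC1 read 9.87 and 9.87 without F5446 and 9.25 and 9.28 with it and fell 1.52-fold. HDAC2, the close relative of HDAC1, read 6.99 and 6.85 without F5446 and 6.81 and 6.84 with it and did not pass. All 3 falls of class I genes were larger than the spread between replicates.

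Of the class IIa enzymes, which shuttle between nucleus and cytoplasm, HDAC4 fell 1.76-fold, from 7.70 and 7.59 to 6.85 and 6.82. A second, dimmer probe set of HDAC4 had a log2 fold change of -0.18 and did not pass (adjusted p = 0.371). HDAC7 rose 1.35-fold, a call lost without F5446 replicate 1 (adjusted p = 0.0851). HDAC5 and HDAC9 did not pass, with log2 fold changes of 0.39 ± 0.17 and 0.43 ± 0.16 (SE). With each array centred on its median their adjusted p was 0.0322 and 0.0188, and HDAC5 also passed without control replicate 1 (0.0234) and HDAC9 without an intensity trend (0.0194). HDAC6, the cytoplasmic deacetylase of tubulin, rose 1.42-fold, from 7.26 and 7.05 to 7.66 and 7.67. HDAC10, a polyamine deacetylase, and HDAC11 did not pass; HDAC10 had an adjusted p of 0.026 with each array centred.

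Among the 7 sirtuins, NAD-dependent deacylases, 2 rose and 0 fell, a called share of 28.6% against 40.9% of all named genes. The share was 55.7% over named genes with a mean signal of at least 4.42, a level that 6 of the 7 sirtuins reached. SIRT1, which deacetylates histones, p53 and other nuclear proteins, read 8.86 and 8.84 without F5446 and 10.14 and 10.21 with it and rose 2.51-fold (log2 fold change 1.33 ± 0.06, SE, adjusted p = 3.75e-07). SIRT7, found in the nucleolus, read 8.17 and 7.92 without F5446 and 8.53 and 8.58 with it and rose 1.42-fold. The mitochondrial SIRT3, SIRT4 and SIRT5 had log2 fold changes of -0.31 ± 0.12, -0.25 ± 0.16 and -0.29 ± 0.12 (SE) and did not pass. The mean signal of SIRT4 lay below 4.42. After quantile normalization SIRT3 passed as lower (adjusted p = 0.0448). SIRT2, mainly cytoplasmic, and SIRT6, a nuclear enzyme, did not pass; SIRT2 had an adjusted p of 0.0263 with each array centred.

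The acetyltransferases matched by the rule moved little, and those that passed went up. Of 6 measured, 4 rose and 0 fell, and all 4 belong to the MYST family. A rise was called for 18.2% of all named genes and 25.1% of those with a mean signal of at least 4.42. Among acetyltransferases that the rule did not match, KAT14 fell 2.22-fold and HAT1 1.92-fold, while CREBBP rose 1.91-fold and EP300 1.60-fold. HAT1, CREBBP and EP300 were named after their values were seen. KAT5, also called TIP60, an enzyme of DNA repair and transcription, read 8.01 and 7.84 without F5446 and 8.75 and 8.60 with it and rose 1.68-fold (log2 fold change 0.75 ± 0.09, SE, adjusted p = 1.43e-04). KAT6B rose 1.50-fold. KAT7, also called HBO1, rose 1.29-fold, a call lost without F5446 replicate 2 (adjusted p = 0.0523). KAT8, also called MOF, the main acetyltransferase of H4K16, rose by 0.24 ± 0.08 on the log2 scale (SE; adjusted p = 0.0489). That call was lost when any single array was left out (adjusted p from 0.0972 to 0.222), after quantile normalization (0.126) and without an intensity trend (0.115). KAT2A and KAT2B, the GCN5 and PCAF enzymes, had overlapping groups and did not pass.

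The 8 readers and cofactors that fell include all 3 HP1 proteins, which bind trimethyl H3K9. CBX5, which encodes HP1 alpha, read 8.73 and 8.81 without F5446 and 7.32 and 7.12 with it and fell 2.92-fold (log2 fold change -1.55 ± 0.09, SE, adjusted p = 1.67e-06). CBX1, HP1 beta, read 8.01 and 8.02 without F5446 and 7.17 and 7.34 with it and fell 1.69-fold, and CBX3, HP1 gamma, read 9.94 and 10.02 without F5446 and 9.17 and 9.42 with it and fell 1.61-fold. TRIM28, also called KAP1, is the corepressor that zinc finger proteins use to bring H3K9 methylation to repeats. It read 11.26 and 11.15 without F5446 and 10.27 and 10.34 with it and fell 1.86-fold (log2 fold change -0.90 ± 0.06, SE, adjusted p = 2.47e-06). ATF7IP, the partner of SETDB1, read 9.31 and 9.27 without F5446 and 8.70 and 8.73 with it and fell 1.49-fold. MPHOSPH8, the H3K9 reader of the HUSH complex, read 7.05 and 7.01 without F5446 and 7.26 and 7.15 with it and did not pass; with each array centred it passed as higher (adjusted p = 0.0364).

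Of the Polycomb readers, which bind trimethyl H3K27, CBX2 read 6.63 and 6.73 without F5446 and 5.68 and 5.64 with it and fell 2.03-fold (log2 fold change -1.02 ± 0.12, SE, adjusted p = 9.16e-05). CBX6 read 9.32 and 9.23 without F5446 and 8.91 and 8.77 with it and fell 1.35-fold, and its second probe set fell 1.39-fold. CBX7 read 5.91 and 6.13 without F5446 and 6.05 and 5.97 with it; its groups overlapped and it did not pass.

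**Figure D4:**
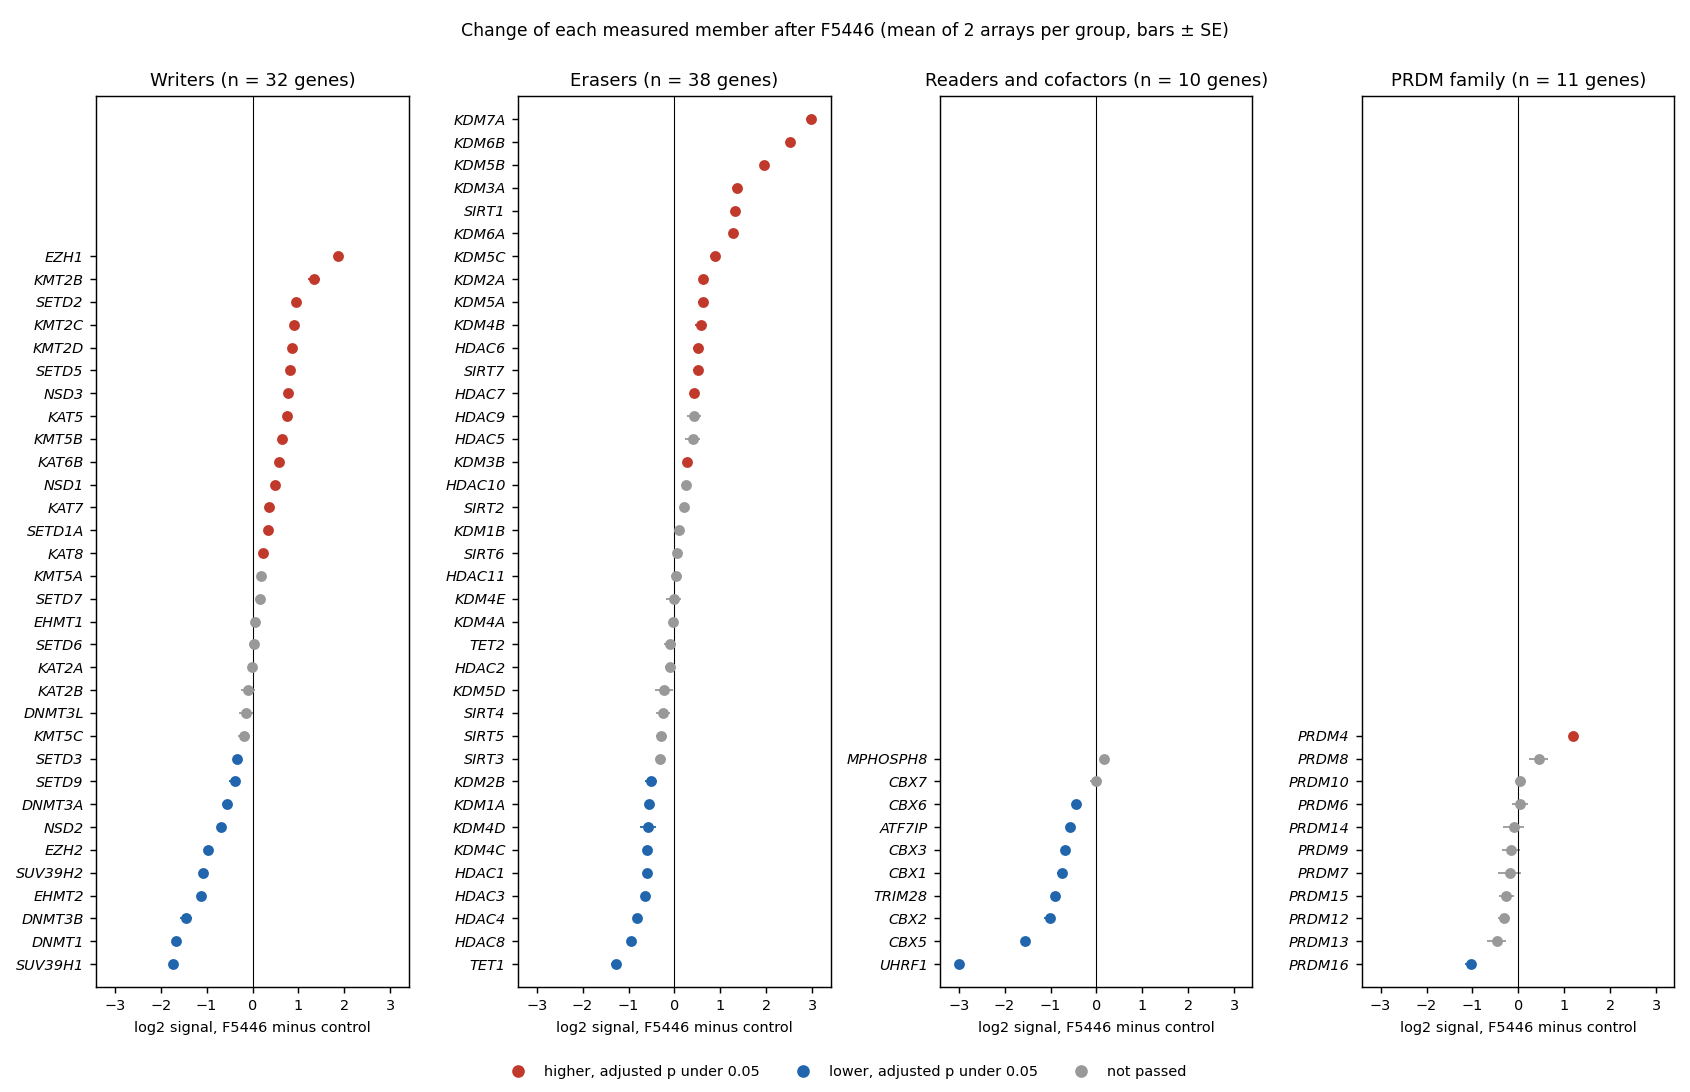
Log2 fold change after F5446 (x axis, F5446 minus control, bars ± SE from limma, 2 arrays per group) of every measured writer, eraser, reader or cofactor and PRDM gene, ordered within its role; red genes were higher, blue genes lower and grey genes did not pass. UHRF1 (-2.99) and KDM7A (2.97) mark the ends of the range.

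The PRDM family, zinc finger proteins with a domain related to SET, changed in 2 of 11 measured genes. PRDM4, a transcription factor that works with the arginine methyltransferase PRMT5, read 8.25 and 8.16 without F5446 and 9.33 and 9.49 with it and rose 2.30-fold (log2 fold change 1.20 ± 0.08, SE, adjusted p = 2.89e-06). PRDM16, known from brown fat and stem cells, read 7.43 and 7.29 without F5446 and 6.21 and 6.43 with it and fell 2.06-fold (log2 fold change -1.04 ± 0.12, SE, adjusted p = 7.92e-05). The mean signal of 6 of the other 9 genes lay below 4.42, where a change can be understated. These 6 include PRDM7 and PRDM9, near copies of each other, so their signals cannot be told apart with certainty. PRDM8 passed as higher without control replicate 2 (adjusted p = 0.0391), and PRDM13 as lower without control replicate 1 (0.0411).

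The proteins that work in complexes with these enzymes were examined as 8 lists, of which 144 genes were measured. Of these, 50 rose, 50 fell and 44 did not pass, a called share of 69.4%, against 40.9% of all named genes. The mean signal of 140 of the 144 was at least 4.42, and of all named genes at that level 55.7% passed. Among 24 Polycomb subunits, 6 rose and 8 fell, a called share of 58.3%, close to that 55.7%. PHF19, an accessory subunit of the EZH2 complex, fell 3.04-fold and RBBP4, a histone-binding subunit shared by several complexes, fell 2.22-fold. RYBP, a subunit of variant Polycomb complexes, rose 3.32-fold and PHF1, a relative of PHF19, rose 2.94-fold. Of 12 subunits and partners of the H3K4 methyltransferases, 4 rose and 6 fell, a called share of 83.3%. PSIP1, which encodes the chromatin-binding protein LEDGF, fell 3.84-fold, while BOD1 rose 2.66-fold and CXXC1, the CpG-binding subunit of the SETD1A complex, rose 1.63-fold.

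Of 19 subunits of deacetylase complexes, 6 rose and 7 fell, a called share of 68.4%. The share was 55.7% over named genes with a mean signal of at least 4.42. RCOR2, which encodes a CoREST protein, fell 4.40-fold. Its relatives RCOR3 and RCOR1 rose 2.05-fold and 1.60-fold; RCOR1 was chosen after its value was seen. Of 31 members of acetyltransferase complexes, 14 rose and 9 fell, a called share of 74.2%. The largest rises among them were those of EPC1 (2.34-fold) and EP400 (1.98-fold), subunits of the KAT5 complex, and MSL1 (1.92-fold), a partner of KAT8. The helicase-like proteins RUVBL1 and RUVBL2 fell 3.11-fold and 2.22-fold, and KAT14 fell 2.22-fold.

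Of 23 partners in heterochromatin and DNA methylation, 9 rose and 7 fell, a called share of 69.6%. The falls were led by LMNB1, which encodes lamin B1 of the nuclear lamina, at 12.1-fold, and ASF1B, a histone chaperone of replicating cells, which read 9.24 and 9.37 without F5446 and 5.62 and 5.81 with it, at 12.1-fold. MORC3, a chromatin ATPase, rose 3.35-fold and MBD1, which binds methylated DNA, rose 2.16-fold. Of 15 arginine and SMYD methyltransferases, 3 rose and 8 fell, a called share of 73.3%. PRMT6, which methylates arginine 2 of histone H3, read 7.71 and 7.68 without F5446 and 4.99 and 4.78 with it, a 7.01-fold fall. Of 12 bromodomain genes, 4 rose and 2 fell, a called share of 50% beside the 40.9% of all named genes and the 55.7% of those with a mean signal of at least 4.42. BRWD1 rose 3.43-fold and BRD7 fell 1.91-fold. Of 8 JmjC genes without a KDM symbol, 4 rose and 3 fell, a called share of 87.5%. JMJD6 rose 2.55-fold and JMJD1C, a relative of KDM3A, rose 2.13-fold, while JMJD8 fell 2.95-fold.

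**Figure D5:**
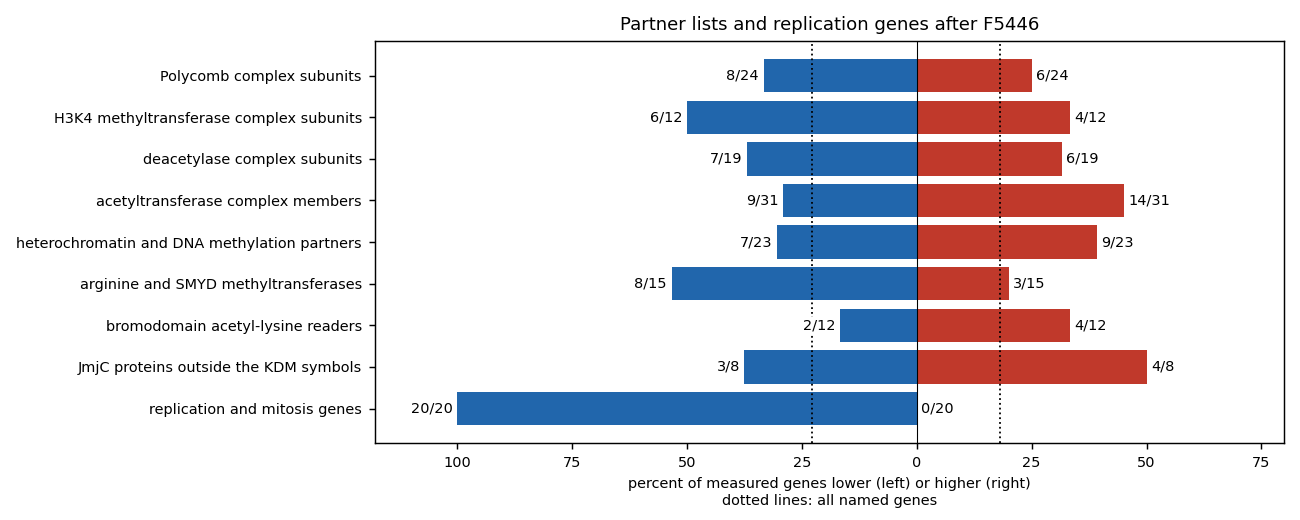
Percent of measured genes of each partner list, and of the replication and mitosis list, that were lower (left, blue) or higher (right, red) after F5446, with the number of genes called of those measured beside each bar; dotted lines mark the shares over all named genes, 22.7% lower and 18.2% higher. All 20 replication and mitosis genes were lower.

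Genes of DNA replication and mitosis fell in the same samples as the chromatin genes that were lower. All 20 of a list of such genes fell (22.7% of all named genes did), with a median log2 fold change of -3.07. Their summed linear signal was 23790 and 24000 in the control arrays and 3223 and 3006 in the F5446 arrays. The part of this fall in the changes of UHRF1, DNMT1, EZH2, SUV39H1 and the other chromatin genes was not tested.

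Epithelial markers fell in part: of 9 measured, 5 fell and 1 rose, and their summed signal went from 8380 and 8424 to 4749 and 4792. VIL1, which encodes villin of the brush border, fell 14.7-fold, while EPCAM remained at 10.2 and 10.3 on the F5446 arrays after a 1.69-fold fall. The epithelial marker that rose was KRT19, by 1.40-fold. Of the markers of other cells, 1 of 7 immune genes rose and 1 fell, and 1 of 5 stromal and endothelial genes fell. The called shares were 66.7% of epithelial, 28.6% of immune and 20% of stromal and endothelial markers. Beside these, 40.9% of all named genes passed, and 55.7% of those with a mean signal of at least 4.42. Among the immune genes, CD68, a lysosomal gene that many cell types express, rose 12.9-fold and LYZ fell 3.45-fold. The summed signal of the immune genes went from 438.3 and 427.1 to 3037 and 2973. That of the stromal and endothelial genes went from 177 and 173.4 to 63.7 and 67.2, where LUM fell 8.12-fold. Of the immune genes 3, and of the stromal and endothelial genes 4, lay below 4.42 on all arrays. The part of these markers in the changes of the chromatin genes was not tested.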

How the data were processed

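Biotin-labelled cDNA from total RNA of 4 SW620 samples was hybridised to 1-colour arrays. The authors deposited a value for each of 53617 probe sets on each array, taken as log2 signal from their range (up to 13.8, above 11.09, the natural logarithm of a 16-bit scanner's range, and under 16, its log2). Partek is named, per the submitters' processing notes; the handling of background, array scaling and probe summary was not given in the sources used here. Scaling would hide a difference in total RNA. A platform annotation names 16098 probe sets with 1 gene symbol each; the other 37519 are unnamed here.

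All 4 arrays were fitted without rescaling in limma 3.58.1 (R 4.3.3), using lmFit with a term for group and eBayes with its trend option. P-values are two-sided, adjusted by Benjamini-Hochberg over 14884 genes, with a threshold of 0.05. No dim genes were left out. The fit was also run on simulated data, with far fewer changed genes than were called here. That run does not give the error rate of these calls. The members, roles and partner lists were chosen with earlier results of these data known, and no test was made over a list. Every chromatin gene may be named, with values by array for H3K9 methyltransferases, for changes of at least 2-fold that passed and for some others. Of each partner list, up to 3 of the largest changes in each direction are named, besides RCOR1, HAT1, CREBBP and EP300. The families of demethylases, deacetylases and acetyltransferases within the roles were formed after the values were seen. Sequence tables of another species than the cells were not used here. Alternatives were rescaled arrays, a dim-gene filter, other variance models, averaged probe sets, a replicate block and left-out arrays.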

Additional observations from a re-analysis of the deposited data

How the results depend on the processing

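Of the 57 chromatin genes that passed, 47 (23 higher and 24 lower) kept their direction and passed under all 11 alternative settings, and 10 missed the threshold under at least 1; their values stand beside them above. No called gene changed direction. A further 10 genes passed under at least 1 alternative only. Centring each array on the median of its named genes shifted all named genes by 0.13 (log2). It changed the share of calls that were higher from 44.6% to 55.6% over all named genes, and from 50.9% to 58.1% over the chromatin genes (36 higher, 26 lower), and gave 1 higher reader in place of 0. Quantile normalization shifted the median of all named genes by -0.026. With every probe set tested, named or not, 6274 were higher and 5483 lower, where 2714 and 3372 named genes were. With single arrays left out, the chromatin genes held 24 to 29 higher and 24 to 27 lower calls, and the readers 8 lower calls each time. Counts for the PRDM family ran from 1 to 2 higher (2 without control replicate 2) and from 1 to 2 lower (2 without control replicate 1). With the replicate number as a block, 2722 named genes were higher and 3342 lower, and the block changed no call among the chromatin genes. Deviations of same-numbered arrays from their group means correlated at 0.04 over genes, and the labels do not say that the numbers mark shared cultures. In a setting chosen after the data were seen, the dimmest probe set of a gene, 28 genes were higher and 27 lower. At a mean signal below 4.42, which 11 of the 91 genes have, a change may be understated.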
